A study of Rattus norvegicus with 24 samples.

Results

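Serpins are a superfamily of proteins built on a shared fold, and most of its members stop serine or cysteine proteases by offering them a reactive loop as bait and then trapping the enzyme in an irreversible complex. They are sorted into clades that the gene symbols carry as a letter after Serpin. The liver secretes most of the serpins of plasma, which hold blood clotting, clot lysis, the complement cascade and leukocyte elastase in check, while clade B serpins mostly stay inside cells. Some members inhibit no protease: Serpina6 carries glucocorticoids, Serpinf1 is a secreted factor that restrains blood vessel growth, and Serpinh1 is a collagen chaperone of the endoplasmic reticulum.

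The genes described here are those whose symbol on the array begins with Serpin, a clade letter from a to i and a number, with Serpina7 left out by the rule of choice. The array annotation holds 46 such probe sets. Of these, 2 were paired with several symbols and were not used, and the other 44 belong to 43 genes, which leaves 42 members once Serpina7 is taken out, of 17245 genes tested. There were 13 members of clade A, 19 of clade B, 2 each of clades E, F and I, and 1 each of clades C, D, G and H. All 42 symbols and Entrez identifiers are in the RefSeq table of rat genes. Members were chosen by name and not by any measured value, but with earlier results of these data known. Close copies, above all the genes of the Serpina3 group and the Serpinb6 and Serpinb9 groups, may share signal between probe sets, so values of single copies are uncertain.

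The livers came from 24 male Wistar rats, and each liver's RNA was read on its own biotin-labelled whole-transcript Affymetrix array. Diets held 20% or 5% protein and were fed for 1 or 4 weeks, making 4 groups of 6 rats. The titles give these percentages and times; the sample descriptions hold the codes 18 and 4 where the titles have 20% and 5%, and the design text speaks of 4 weeks only, so the exact protein contents and times are in some doubt. No other treatment is named for these 24 animals, their age is not given in the sources used here, and 20% is called the normal diet. Values are intensities of probe sets on the linear scale after RMA (robust multi-array average), which come without detection calls, and intensities of different genes are not compared. Array medians lay between 42.4 and 45.5, and arrays within a group correlated at 0.984 to 0.995. Whole liver was used, in which fewer cells of a type and less RNA per cell cannot be told apart. Hepatocyte marker genes such as albumin were read at high intensity in every group, with sums over 8 genes of 51610 to 72430.

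Differences are of log2 intensity, 5% minus 20% protein unless said otherwise, with the standard error of the fit. A gene was called when limma's Benjamini-Hochberg adjusted p over all 17245 genes was below 0.05, and "rose" and "fell" are used of called genes only. Values of n are 6 animals per group throughout. Nothing in the labels names an extraction or hybridisation batch, but animal numbers in the titles fall into 4 runs, and diet and run are linked at 4 weeks. The first run (animals 22 to 32) holds 5 of the 5% and 2 of the 20% animals, and the third run (animals 59 to 73) holds 1 and 4. At 1 week, each diet has 3 animals in the second run (49 to 54) and 3 in the fourth (74 to 79), but no row of wells holds both diets. Values within runs and with the run as a covariate are given after the pooled comparisons, and beside a gene where the covariate ends its call.

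Promoter sequence is shown for 5 of the members that fell at 4 weeks. They are Serpina3n and Serpina4 from the clade A cluster, the nearby pair Serpinf1 and Serpinf2, and the collagen chaperone gene Serpinh1. The sequences are RefSeq's on the rat build GRCr8. They are taken from the 250 bases before an annotated start of each gene and printed on the gene's own strand. Distances are counted from that start, and for Serpina4 and Serpinh1 an annotated transcript begins farther out. Only 206 bases are shown for Serpina4, where an annotated transcript covers the rest of the window. For Serpinh1 such a transcript covers most of the window. The 30 bases shown lie in that covered part and were picked because they hold the heat shock match. Capitals mark matches, on either strand, to 4 motifs: TTCNNNGAA for STAT factors, GAANNTTC for heat shock factors, GTTAAT as one arm of an HNF1 site, and TTGCNNAA for C/EBP factors.
Serpina3n, chr6:129088142-129088391, plus strand: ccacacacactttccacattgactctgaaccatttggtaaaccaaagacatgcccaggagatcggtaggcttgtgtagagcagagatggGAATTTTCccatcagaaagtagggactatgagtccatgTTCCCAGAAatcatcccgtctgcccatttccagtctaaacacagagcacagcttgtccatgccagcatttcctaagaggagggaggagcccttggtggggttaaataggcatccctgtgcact
Serpina4, chr6:128764532-128764737, plus strand: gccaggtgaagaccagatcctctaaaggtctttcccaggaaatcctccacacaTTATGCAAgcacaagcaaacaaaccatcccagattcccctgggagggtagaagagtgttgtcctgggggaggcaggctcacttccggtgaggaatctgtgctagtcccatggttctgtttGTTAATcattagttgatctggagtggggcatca
Serpinf1, chr10:60760899-60761148, minus strand: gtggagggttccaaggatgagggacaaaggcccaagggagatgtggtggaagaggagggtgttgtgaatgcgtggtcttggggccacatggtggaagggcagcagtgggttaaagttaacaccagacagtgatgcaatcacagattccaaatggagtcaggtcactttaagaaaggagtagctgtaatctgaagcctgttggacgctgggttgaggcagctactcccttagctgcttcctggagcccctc
Serpinf2, chr10:60778783-60779032, minus strand: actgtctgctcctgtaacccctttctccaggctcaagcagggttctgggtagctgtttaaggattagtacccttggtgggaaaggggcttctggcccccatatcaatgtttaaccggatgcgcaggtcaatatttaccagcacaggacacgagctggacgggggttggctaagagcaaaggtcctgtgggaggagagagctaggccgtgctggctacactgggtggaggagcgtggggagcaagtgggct
Serpinh1, chr1:163062988-163063017, minus strand: ccaactttccaGAAGTTTCttaggacaggc
The Serpina3n window holds TTCCCAGAA at 123 to 115 bases before the start and GAATTTTC at 161 to 154. In the Serpina4 window, GTTAAT lies 77 to 72 bases before the start and TTATGCAA 197 to 190, the latter being the C/EBP motif on the other strand. Serpinh1 holds GAAGTTTC at 30 to 23 bases before the start, and neither the Serpinf1 nor the Serpinf2 window matched any of the 4 motifs. A window was on hand for 34 of the 42 members. Serpina3c, Serpina6, Serpina10, Serpinb6el1, Serpinb8, Serpinb12, Serpind1 and Serping1 had no entry. The STAT motif was found in 3 of the 34 (Serpina3l, Serpina3n and Serpinb9b) and in 7.67% of 33469 windows of all genes, the heat shock motif in 6 and 7.23%, the HNF1 motif in 2 and 6.45%, and the C/EBP motif in 5 and 9.22%. A match describes letters only and is not a site of binding.

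The comparison of diets after 4 weeks asks how the liver's serpins stand after the longer shortage of protein. Among the genes that were lower on 5% protein were those of C1 inhibitor (Serping1, -0.82 ± 0.11), heparin cofactor II (Serpind1, -0.71 ± 0.14), kallistatin (Serpina4, -0.69 ± 0.10) and alpha-2-antiplasmin (Serpinf2, -0.64 ± 0.09), all of them inhibitors of plasma, while other plasma inhibitor genes such as Serpina10 and Serpina3c were not called. The largest difference of any member was that of the collagen chaperone gene Serpinh1 (-0.87 ± 0.18). Of the 42 members, 13 fell and 1 rose, 33.3% called where 25.8% of all genes were called. Of all genes 12.4% fell and 13.4% rose, so calls among the serpins were nearly all lower while those over all genes were split. The median difference was -0.12 over the members and -0.01 over all genes. In 6 members every animal on 5% protein lay below every animal on 20%, against 5.88% of all genes, and no member had the opposite order. Without animal 23 of the 5% group 9 members were called, all lower, and with the run of animal numbers as a covariate 8, all lower.

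**Figure D1:**
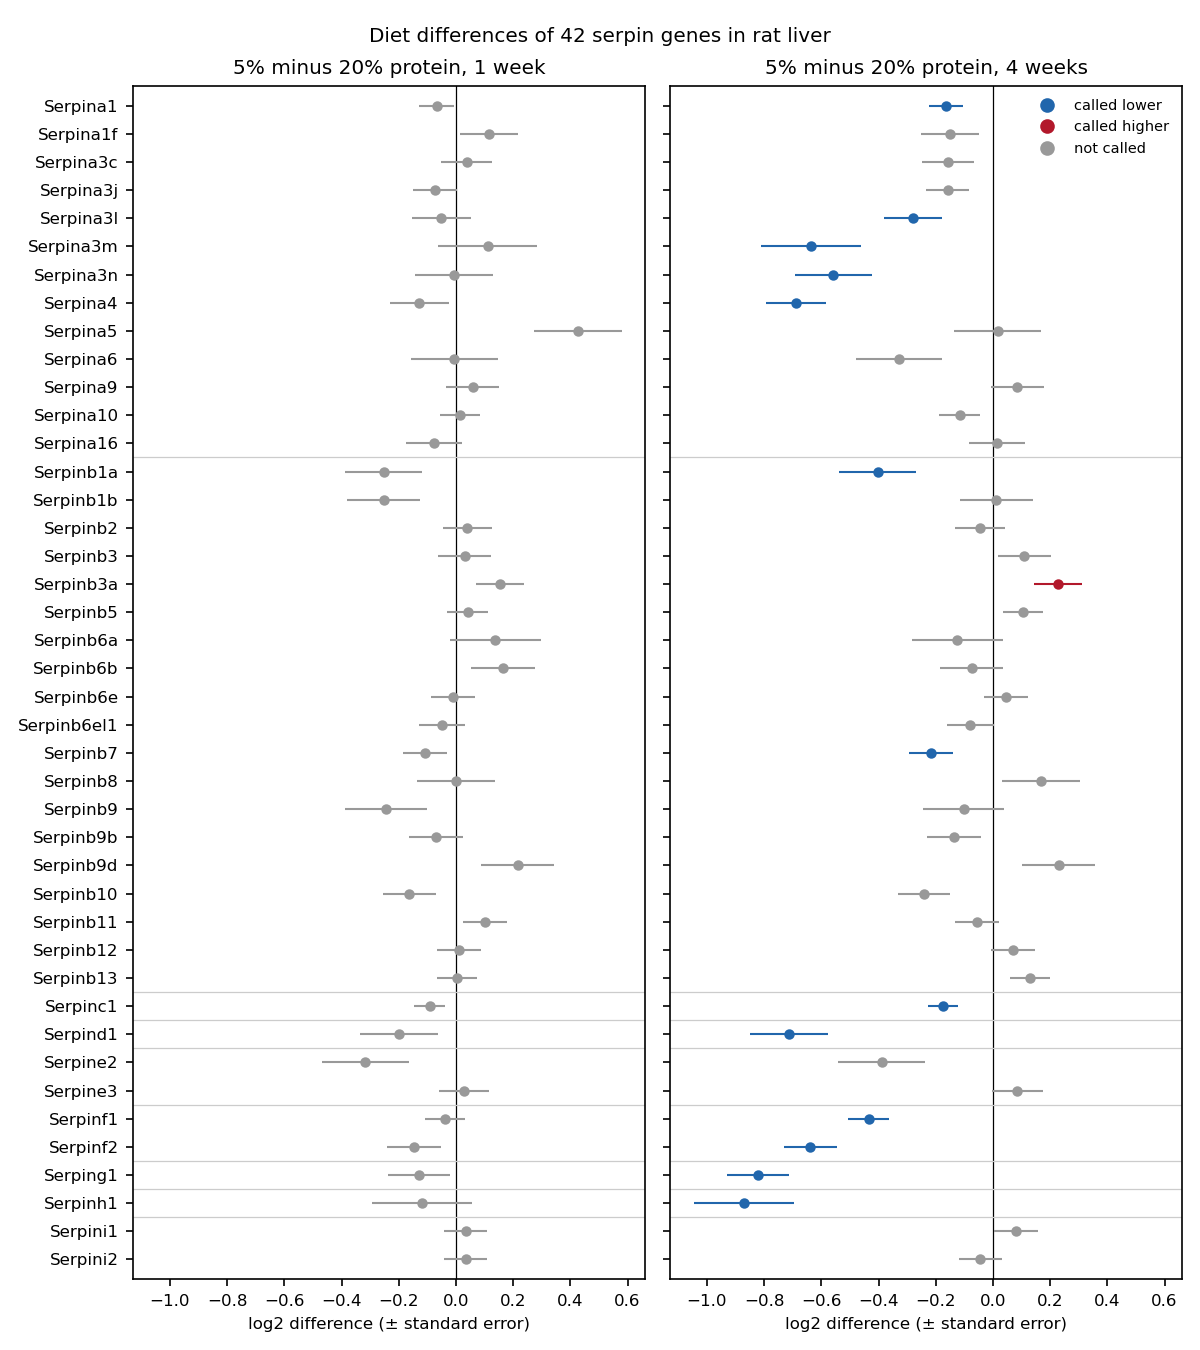
Log2 differences of 42 serpin genes between 5% and 20% protein at 1 week (left) and 4 weeks (right), in order of clade with grey lines between clades; points are fitted differences, bars standard errors, n = 6 animals per group. At 1 week no gene was called; at 4 weeks 13 were called lower (blue) and Serpinb3a higher (red).

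By clade, 5 of 13 genes of clade A fell at 4 weeks with a median of -0.16. In clade B 2 of 19 fell and 1 rose, with a median of -0.04. Of the 10 genes of the remaining clades 6 fell, with a median of -0.41. Over all genes 12.4% fell and 13.4% rose. Among the lowest 33.3% of genes by mean were 14 of the 19 of clade B and 4 of the 13 of clade A. So were Serpine3, Serpini1 and Serpini2 of the remaining clades. Whether low readings had a part in the difference between clades was not tested. In clade A the largest fall was that of Serpina4, which encodes kallistatin, an inhibitor of tissue kallikrein. At 4 weeks the lowest, median and highest intensities were 4523, 5077 and 5444 on 20% protein and 2200.0, 3186 and 3942 on 5%, and the groups did not overlap. The fall was 0.69 ± 0.10 on the log2 scale, 1.61-fold (limma, adjusted p = 2.3e-05). At 1 week the same values were 3717, 4397 and 4923 on 20% and 3535, 4027 and 4479 on 5%, which overlapped widely.

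Serpina3m and Serpina3n belong to the rat's antichymotrypsin-like and contrapsin-like genes, known in liver for their response to inflammation and growth hormone. For Serpina3m the lowest, median and highest intensities at 4 weeks were 2336, 2724 and 3187 on 20% protein and 1102, 1874 and 2199.5 on 5%. The groups did not overlap, and the difference was -0.64 ± 0.17 (limma, adjusted p = 0.00773). With the run of animal numbers as a covariate it was -0.47 and no longer called (limma, adjusted p = 0.0986). At 1 week its values were 1200.4, 2365 and 2571 on 20% and 1825, 2191 and 2886 on 5%, with overlapping groups and a single low animal on 20%. Serpina3n, whose promoter window is shown above, had 7489, 8329 and 9789.5 on 20% and 3135, 6098 and 8145 on 5% at 4 weeks. Its groups overlapped, with 1 animal on 5% far below the rest, and the fall was 0.56 ± 0.14 (limma, adjusted p = 0.00317). Serpina3l fell by 0.28 ± 0.10 (limma, adjusted p = 0.0447; 0.225 and not called with the run covariate), while Serpina3c (-0.16 ± 0.09) and Serpina3j (-0.16 ± 0.08) of the same group were not called. RefSeq lists Spin2a, Spin2b and Spin2c as older names of Serpina3l, Serpina3c and Serpina3n.

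Serpina1 encodes alpha-1-antitrypsin, the main inhibitor of neutrophil elastase in plasma. Its values at 4 weeks were 8247, 9292 and 9505 on 20% and 7128, 8243 and 9034 on 5%, a fall of 0.17 ± 0.06 (limma, adjusted p = 0.0432) with overlapping groups. With the run of animal numbers as a covariate Serpina1 (-0.13, limma adjusted p = 0.219) was no longer called. Serpina6, the carrier of glucocorticoids in blood, had 4455, 5345 and 5679.5 on 20% and 2414, 4283 and 5810.0 on 5% and was not called (-0.33 ± 0.15, 95% interval -0.64 to -0.02, limma adjusted p = 0.118). Without animal 26 of the 5% group its difference was -0.43 with an adjusted p of 0.0321 by limma. Serpina10 inhibits activated factor X together with protein Z, and its difference was -0.12 ± 0.07 (limma, adjusted p = 0.25). Serpina5, the protein C inhibitor gene, had intensities of 41.3 to 90.5 over all 24 animals and differed by 0.02 ± 0.15 at 4 weeks. The remaining genes of clade A, Serpina1f (-0.15), Serpina9 (0.09) and Serpina16 (0.01), were also not called. In the RefSeq order of genes the 13 members of clade A lie near each other in 1 block from Serpina10 to Serpina3n. A block may hold a few other genes between members. The 5 that fell and the 8 that were not called thus share a neighbourhood.

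Clade B holds inhibitors that mostly stay in the cell. The leukocyte elastase inhibitor gene Serpinb1a had 50.9, 68.0 and 85.4 on 20% and 42.3, 50.3 and 60.9 on 5% at 4 weeks. It fell by 0.40 ± 0.14 (limma, adjusted p = 0.0288), and the groups overlapped. Serpinb7 (megsin) fell by 0.22 ± 0.08 (limma, adjusted p = 0.0419), on intensities of 7.69 to 11.4 over all animals, and was not called with the run of animal numbers as a covariate (adjusted p = 0.312). The single rise among the members was that of Serpinb3a, a relative of the squamous cell carcinoma antigens, with 4.97, 5.83 and 6.73 on 20% and 6.14, 6.51 and 8.14 on 5%. That rise was 0.23 ± 0.08 (limma, adjusted p = 0.0461; 0.1 and not called with the run covariate), and its groups overlapped. Serpinb9 inhibits granzyme B and read 192 to 348 over all animals, with a difference of -0.10 ± 0.14. Serpinb6a, an inhibitor of cathepsin G, differed by -0.12 ± 0.16 and Serpinb6b by -0.07 ± 0.11. Serpinb10 (bomapin) did not pass the test (-0.24 ± 0.09, limma adjusted p = 0.0569), though it did so without animal 22, 29, 30 or 73, with array weights, and with trend and robust estimation.

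The other members of clade B did not pass the test at 4 weeks. The differences of the Serpinb6 and Serpinb9 copies were 0.05 (Serpinb6e), -0.08 (Serpinb6el1), -0.14 (Serpinb9b) and 0.23 (Serpinb9d, called without animal 73). Serpinb2, plasminogen activator inhibitor 2, had -0.04, Serpinb5 (maspin) 0.10 and Serpinb8 0.17. Serpinb1b had 0.01, Serpinb3 0.11, Serpinb11 -0.06, Serpinb12 0.07 and Serpinb13 0.13. The genes of clade B lie in 2 blocks in the RefSeq order, 10 from Serpinb5 to Serpinb8, with 1 fallen and 1 risen, and 9 from Serpinb6a to Serpinb1a, with 1 fallen.

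Clotting is held in check by antithrombin (Serpinc1) and heparin cofactor II (Serpind1), both of which inhibit thrombin. For Serpind1, at 4 weeks the lowest, median and highest intensities were 3943, 4598 and 5022 on 20% protein and 2009.9, 2763 and 3837 on 5%, with no overlap. The fall was 0.71 ± 0.14, 1.64-fold (limma, adjusted p = 0.000351). At 1 week the values were 3797, 4704 and 4949 on 20% and 3235, 4067 and 4895 on 5%, and the groups overlapped. Serpinc1 had 6607, 6909.6 and 7403 on 20% and 5634, 6112 and 6715 on 5% at 4 weeks, overlapping at the edge. Its fall was 0.17 ± 0.05 (limma, adjusted p = 0.0172). With array medians centred, Serpinc1 was no longer called (adjusted p = 0.0788 by limma), nor was it with the run of animal numbers as a covariate (0.13).

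Serpinf2 encodes alpha-2-antiplasmin, which inhibits plasmin and so slows the lysis of clots, and Serpinf1 encodes pigment epithelium-derived factor. At 4 weeks the Serpinf2 lowest, median and highest intensities were 5027, 5587 and 6417 on 20% protein and 3047, 3615 and 4412 on 5%, and no animal on 5% reached the lowest on 20%. The fall was 0.64 ± 0.09, 1.56-fold (limma, adjusted p = 1.49e-05). At 1 week its values were 4551, 5338 and 6001 on 20% and 4393, 4770.3 and 5263 on 5%. Those 1-week groups overlapped. Serpinf1 at 4 weeks had 6399, 7352 and 7637 on 20% and 4377, 5324 and 5944 on 5%, again without overlap, and fell by 0.43 ± 0.07 (limma, adjusted p = 6.21e-05). These genes lie near each other in the RefSeq order and both fell, and the promoter windows shown above are theirs.

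Serping1 encodes the C1 inhibitor, which blocks the first proteases of complement, plasma kallikrein and factor XII. At 4 weeks the lowest, median and highest intensities were 3959, 4384 and 5033 on 20% protein and 1856, 2627 and 3211 on 5%, with a clear gap between the groups. The fall was 0.82 ± 0.11, 1.77-fold (limma, adjusted p = 4.3e-06), the smallest p of any member in this comparison. At 1 week the values were 2875, 3565 and 4141 on 20% and 2965, 3244 and 3576 on 5%, where the 5% animals lay inside the range of the 20% animals.

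Serpinh1 encodes HSP47, which binds newly made procollagen in the endoplasmic reticulum. At 4 weeks the lowest, median and highest intensities were 228, 410.0 and 592 on 20% protein and 176, 212 and 251 on 5%. The 5% animals were bunched at the low end, and the 20% animals spread widely enough that the lowest of them fell among the 5% animals. The fall was 0.87 ± 0.18, 1.83-fold (limma, adjusted p = 0.000543). At 1 week the values were 309, 452 and 596 on 20% and 355, 391 and 493 on 5%, with the groups mixed. The heat shock match in its promoter window is shown above, in bases printed because they hold it.

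Serpine2, protease nexin-1, an inhibitor of thrombin and urokinase at the cell surface, was not called at 4 weeks (-0.39 ± 0.15, limma adjusted p = 0.0608). Its intensities were 164, 215 and 224 on 20% and 130.3, 151 and 198 on 5%, so the groups overlapped while the median was lower on 5%. Without animal 26 or animal 29 it was called, with an adjusted p of 0.0308 to 0.0347 by limma, and it was also called with array weights, quantile normalization, the filter on low genes and only the groups compared. Serpine3 (0.09), Serpini1, the neuronal inhibitor neuroserpin (0.08), and Serpini2 (-0.04) were not called. Their intensities over all 24 animals were 10.9 to 17.0, 9.82 to 14.7 and 8.69 to 11.4.

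**Figure D2:**
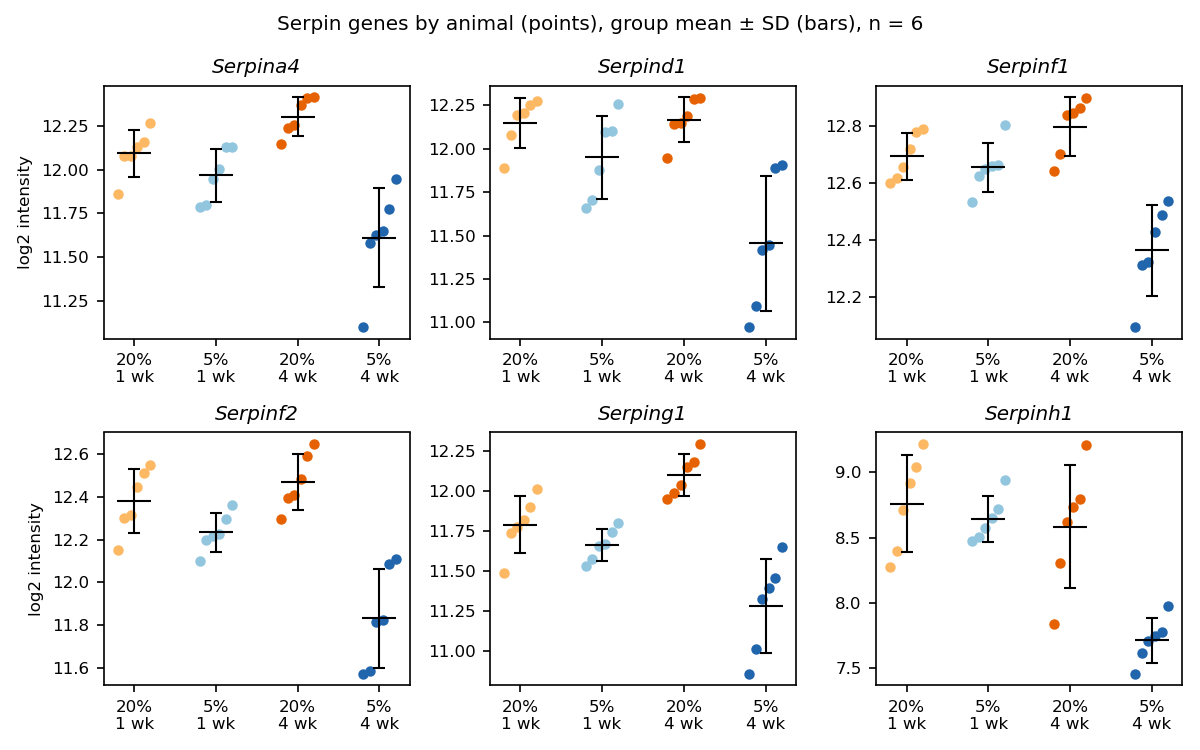
Log2 intensity of 6 serpin genes in each of the 24 animals (points) by group, with the group mean and SD (bars, n = 6); each panel has its own scale, which does not start at 0. In the 4-week 5% group the points lie below all 4-week 20% points except for Serpinh1, where the lowest 20% animal falls among them.

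After 1 week no member was called by limma, where 4.3% of all genes were, and 2 members had an unadjusted p below 0.05. The differences ran from -0.32 (Serpine2) to 0.43 (Serpina5), with a median of -0.01. No member had groups that did not overlap, against 2.56% of all genes. For the 6 genes drawn by animal, the 95% intervals of the 1-week differences were -0.34 to 0.09 (Serpina4), -0.48 to 0.08 (Serpind1), -0.19 to 0.11 (Serpinf1), -0.34 to 0.05 (Serpinf2), -0.35 to 0.10 (Serping1) and -0.48 to 0.24 (Serpinh1). All 6 intervals include 0, with lower bounds of -0.19 to -0.48 and upper bounds of 0.05 to 0.24. For each gene, a 1-week difference within its interval cannot be told from none. Serpina5 had the largest 1-week difference, 0.43 ± 0.15 (limma, adjusted p = 0.119), with 41.3, 51.7 and 60.5 on 20% and 57.9, 69.6 and 90.5 on 5%. A second probe set of Serpina5 differed by -0.04 ± 0.09 at 1 week, and was not called.

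Whether the diet difference itself changed between 1 and 4 weeks was tested by the diet by time term. It was called for 4 members, all toward a larger deficit on 5% protein at 4 weeks, against 5.75% of all genes in either direction and 2.2% in that direction. Serping1 had -0.69 ± 0.15 (limma, adjusted p = 0.0118), Serpina4 -0.56 ± 0.15 (0.027), Serpinf2 -0.49 ± 0.13 (0.0297) and Serpinf1 -0.40 ± 0.10 (0.0232). With the run of animal numbers as a covariate only Serping1 stayed called. The terms of Serpinh1 (-0.75 ± 0.25, adjusted p = 0.0696), Serpina3m (-0.75 ± 0.25, adjusted p = 0.0703), Serpina3n (-0.55 ± 0.19, adjusted p = 0.0888) and Serpind1 (-0.51 ± 0.19, adjusted p = 0.118) missed the threshold, as fitted. With array weights Serpina3m (adjusted p = 0.0357 by limma) and Serpinh1 (0.0207) passed, and with quantile normalization between arrays Serpina3m did (0.0447). Without animal 22, Serpina3n and Serpind1 passed, Serpind1 also without animal 26, and Serpinh1 without animal 29 or 53. The members' median term was -0.09, beside 0.003 over all genes.

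Within each diet, the animals fed for 4 weeks were also compared with the other animals fed for 1 week. No run of animal numbers spans both times, so time and run cannot be told apart in these comparisons. On 5% protein 7 members were lower at 4 weeks than at 1 week and none was higher, against 8.29% of all genes called and 4.13% called lower. Serpinh1 had the largest difference, -0.93 ± 0.18 (limma, adjusted p = 0.00213), and its groups did not overlap. Serpind1 was lower by 0.49, Serpinf2 by 0.40, Serping1 by 0.38, Serpina4 by 0.35, Serpina1f by 0.33 and Serpinf1 by 0.29. Besides Serpinh1, the groups of Serpina10 did not overlap in this comparison (-0.19 ± 0.07, not called, limma adjusted p = 0.0941), where 1.94% of all genes had such groups in the lower direction. On 20% protein no member was called between the times by limma, with 2 at an unadjusted p below 0.05, against 2.52% of all genes called. The differences there for Serpina3m (0.37 ± 0.17) and Serping1 (0.31 ± 0.11) were positive but not called. Each time comparison shares its 4-week or 1-week animals with a diet comparison, so they are not separate evidence. The count on 5% protein moved to 3 without animal 32, 50 or 54, and to 4 without animal 23, 31, 49 or 75.

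**Figure D3:**
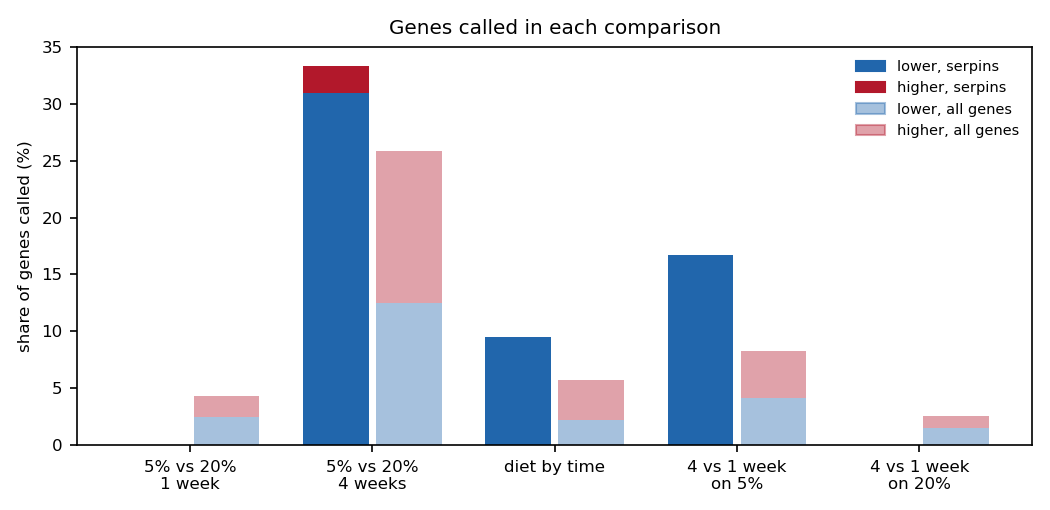
Share of 42 serpin genes (solid bars) and of 17245 genes (pale bars) called in each comparison, as stacked percentages lower (blue) and higher (red). The serpins' 4-week bar reaches 33.3% and is nearly all lower, beside 25.8% of all genes in both directions.

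Differences were also taken within runs of animal numbers, from 5 against 2 animals in the first run and 1 against 4 in the third, where animal 59 alone stands for the 5% diet and its spread is assumed from the other groups. The 13 genes that fell at 4 weeks were chosen on these same 12 animals, so their signs within runs are a description and no separate support. All 13 differences were below 0 in both runs, with medians of -0.50 and -0.54. In the first run 8 members were called, 15.9% of all genes being called there, 7 of them lower, against 7.54% of all genes. In the third run 7 were called lower, against 12.3% of all genes called and 5.49% called lower. Serping1 had -0.70 and -0.84 in the first and the third run, Serpina4 -0.58 and -0.71, and Serpinh1 -0.76 and -1.16. Serpind1 had -0.59 and -0.78, Serpinf1 -0.30 and -0.54, and Serpinf2 -0.51 and -0.71. These 6 genes passed in the first run and, with the assumed spread of animal 59, in the third. Serpinb1a (-0.58 and -0.45) was called in the first run. Serpina1 (-0.10 and -0.18), Serpina3l (-0.17 and -0.29) and Serpinb7 (-0.16 and -0.09) were called in neither. Serpina3m (-0.50 and -0.41) and Serpina3n (-0.45 and -0.60) were called in neither, and Serpinc1 fell short in both (-0.12 and -0.15). Serpine2 was called lower in the third run only (-0.75) and Serpinb3a higher in the first only (0.36). The diet difference of no member was called different between the runs by limma at 4 weeks, where 0.029% of all genes were, or at 1 week, where 7.29% were, and 3 members had an unadjusted p below 0.05 in each of these tests. At 1 week Serpina5 was called higher in the second run (0.68; 7.57% of all genes called) and Serpine2 lower in the fourth (-0.68; 8.49%).

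**Figure D4:**
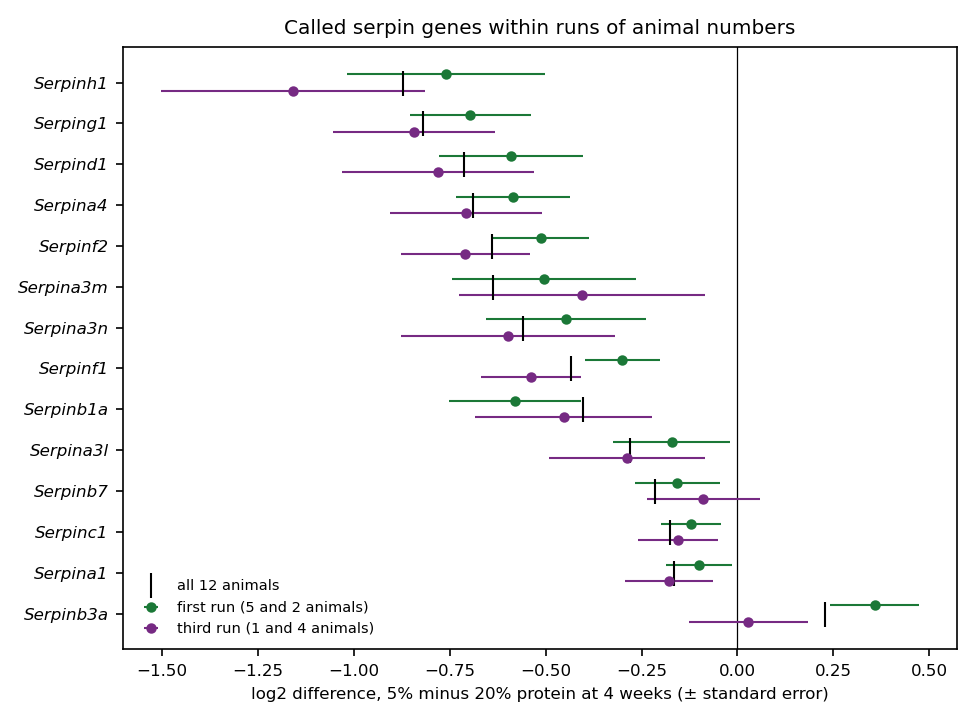
Log2 differences between 5% and 20% protein at 4 weeks of the 14 called serpin genes within the first run of animal numbers (green, 5 and 2 animals) and the third (purple, 1 and 4 animals), with standard errors; black ticks give the difference over all 12 animals. All 13 fallen genes, chosen on these animals, lie left of 0 in both runs.

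The 14 calls at 4 weeks did not rest equally on each animal. Serpina4, Serpind1, Serpinf1, Serpinf2, Serping1 and Serpinh1 were called under all of the alternative settings tried for them, including the loss of any 1 animal and the third run, in which 1 animal holds the 5% diet. The other 8 lost the call in 2 to 17 of up to 25 settings. Leaving out 1 of 9 animals (23, 30, 31, 32, 59, 63, 67, 72 or 73) ended the call of Serpina1. Serpina3l lost it without 1 of 7 animals (23, 31, 32, 59, 63, 72 or 73), and Serpinb1a without 1 of 6 (22, 23, 29, 30, 59 or 63). Serpinb7 lost it without any 1 of 22, 23, 26, 30, 31, 32, 67, 72 and 73, and Serpinb3a without any 1 of 23, 26, 29, 30, 32, 63, 67 and 72. The adjusted p of these 5 genes was then between 0.0525 and 0.137 by limma. Of the 42 members, 21 were among the upper part of genes kept when the lowest 33.3% by mean were left out. They include 12 of the 13 fallen genes, while Serpinb7 and Serpinb3a were not among them. With that filter 13 of the 21 were called, all lower, where 38.3% of all genes kept were called in either direction. The share of kept genes called lower was not computed.

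The same animals were often at the extremes. In the 5% group at 4 weeks, animal 32 was lowest in 8 of the 13 fallen genes and animal 22 highest in 8. In the 20% group, animal 29 was lowest in 8 and animal 30 in 4, both of them in the first run, and animal 73 of the third run was highest in 9. Whether sample quality or the run had a part in this was not tested.

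Serpins act on named proteases, so genes of those proteases and of their cofactors were read from the same arrays. Lists of these genes were drawn up with earlier results known, and their counts are set beside the 25.8% of all genes called and the all-gene median of -0.01 at 4 weeks. All 8 genes of coagulation proteases fell, with a median of -0.41. The largest falls were those of F11 (-1.04 ± 0.18), F10 (-0.56 ± 0.10) and F9 (-0.42 ± 0.09). F2, the gene of prothrombin, which Serpinc1 and Serpind1 inhibit once it is thrombin, fell by 0.37 ± 0.08; it was named after its value was seen. Of 6 fibrinolytic and growth factor activating proteases 4 fell, with a median of -0.31, among them Hpn (-0.58 ± 0.11), Plau, the gene of urokinase (-0.53 ± 0.17), and Plg, the gene of plasminogen (-0.28 ± 0.06). The fall of Plg was smaller in size than that of Serpinf2, the inhibitor of plasmin, though the difference between these genes was not tested.

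Targets of the C1 inhibitor were lower together with its gene. Of 6 measured complement proteases 5 fell, with a median of -0.53. C1s, the protease of the C1 complex that cleaves C4 and C2, fell by 1.54 ± 0.20 (limma, adjusted p = 2.33e-06), Masp1 of the lectin pathway by 0.71 ± 0.12 and C1r by 0.69 ± 0.11. F12 (-0.41 ± 0.09) and Klkb1 (-0.40 ± 0.11), both of them targets of the C1 inhibitor and named after their values were seen, also fell. No gene of these 3 protease lists was called at 1 week by limma, where 4.3% of all genes were, and 3 had an unadjusted p below 0.05. Within the first and the third run of animal numbers at 4 weeks, the genes called lower were 4 and 3 for coagulation, 2 and 2 for fibrinolysis and 4 and 2 for complement, where 7.54% and 5.49% of all genes were called lower. Without animal 23 or animal 63, 2 fibrinolytic genes were called in place of 4.

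Proteases of granules and lysosomes, among them targets of clade B serpins, were called about as often as all genes (25.8%). Of 16 measured genes 3 fell, Ctsh (-0.82 ± 0.11), Ctsk (-0.64 ± 0.16) and Casp1 (-0.42 ± 0.15), and Ctsl rose (0.70 ± 0.12), with a median of -0.08. Elane, the gene of neutrophil elastase, differed by 0.04 ± 0.10 and was not called.

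**Figure D5:**
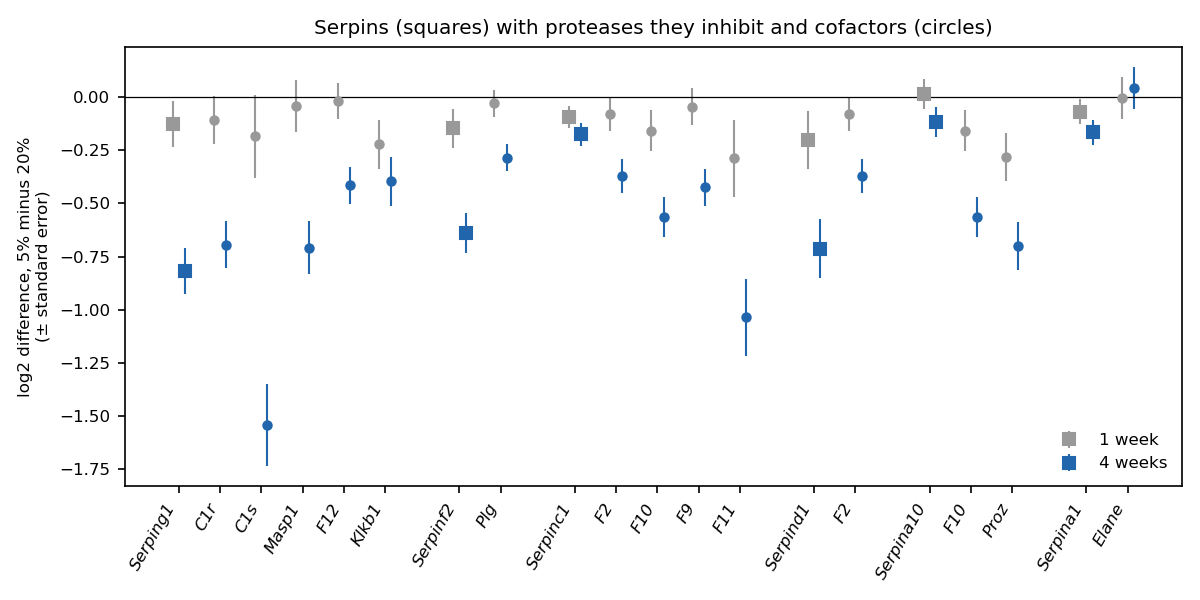
Log2 differences between 5% and 20% protein at 1 week (grey) and 4 weeks (blue) of 6 serpin genes (squares) and, to the right of each, genes of proteases that the serpin inhibits or of its cofactor (circles), with standard errors; the pairs are textbook ones and F2 and F10 appear under more than 1 serpin. At 4 weeks every gene drawn lies below 0 except Elane.

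Other protease inhibitors were counted beside the serpins. Of 25 measured inhibitors that are not serpins 10 fell and 1 rose at 4 weeks, with a median of -0.17. The largest falls were those of Spink1 (-2.63 ± 0.38), an inhibitor of trypsin, Slpi (-1.40 ± 0.22), which inhibits leukocyte elastase, and Itih1 (-0.95 ± 0.09), an inter-alpha-trypsin inhibitor heavy chain. Tfpi, the inhibitor of tissue factor, rose (0.73 ± 0.16). Among 14 receptors that clear serpin complexes and cofactors, 9 fell and 1 rose, with a median of -0.41. Lrp1, the receptor that takes up serpin and protease complexes, fell by 1.04 ± 0.13, the heparan sulfate carrier Sdc1 by 0.99 ± 0.21 and Pros1, protein S, by 0.79 ± 0.12. Vldlr, of the same receptor family as Lrp1, rose by 2.41 ± 0.19 at 4 weeks and by 1.00 ± 0.19 at 1 week. Proz, the gene of protein Z and so of the cofactor of Serpina10, fell by 0.70 ± 0.11, named after its value was seen, while Serpina10 itself was not called.

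Genes of collagens and of the enzymes that fold them were read beside Serpinh1. Of 19 measured genes 8 fell and none rose at 4 weeks, with a median of -0.27. Col3a1 fell by 1.05 ± 0.21, Col1a2 by 0.80 ± 0.23 and P4ha1, a subunit of prolyl hydroxylase, by 0.68 ± 0.18. Col1a1 differed by -0.97 ± 0.40 without passing the test (limma, adjusted p = 0.081). Of 25 genes of folding and export in the secretory route, through which plasma serpins leave the hepatocyte, 7 fell and 2 rose, with a median of -0.14. Edem1, which helps to remove misfolded glycoproteins, fell by 0.90 ± 0.16, the coat protein gene Sec23a by 0.46 ± 0.07 and Sar1b by 0.41 ± 0.10, while Man1b1 (0.60 ± 0.08) and Tmed10 (0.27 ± 0.08) rose.

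Of 22 measured regulators of hepatic plasma protein genes 5 fell and 1 rose at 4 weeks, with a median of -0.17. That was 27.3% called, near the 25.8% of all genes. Onecut1, a hepatocyte transcription factor, was lower at both times (-1.26 ± 0.37 at 4 weeks and -1.71 ± 0.37 at 1 week). Il6r, a receptor chain for interleukin 6, fell by 1.25 ± 0.21 and Cebpa by 0.65 ± 0.10. Hsf1, the heat shock factor, rose by 0.44 ± 0.10. In the first run of animal numbers, where 15.9% of all genes were called, the genes called in either direction numbered 7 of the clearance list, 7 of the collagen list, 6 of the secretory list and 5 of the regulators. In the third run, where 12.3% of all genes were called, they numbered 6, 2, 2 and 3, so the share of the last 3 lists was near that of all genes or below it. Besides Vldlr and Onecut1, Sec23a (-0.36 ± 0.07) was the only gene of the 9 lists called at 1 week.

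Markers of liver cell types were read as well, and their part in the serpin differences was not tested. Their counts stand beside 25.8% of all genes called at 4 weeks, 12.4% lower and 13.4% higher, and 4.3% called at 1 week. Of 8 hepatocyte markers 4 were called lower at 4 weeks, with summed intensities of 60760 to 72430 on 20% protein and 51610 to 63120 on 5%. Albumin differed by -0.13 ± 0.06 and was not called. Kupffer cell and macrophage markers were lower in 6 of 8 (1 in the first run and 3 in the third), with sums of 3977 to 6863 on 20% and 2719 to 3470 on 5%, which did not overlap. Endothelial markers were lower in 2 of 5 (sums of 3239 to 3831 and 2616 to 3117), and in 1 without animal 59 or 63. Stellate cell and fibroblast markers, from cells that make much of the liver's collagen, were lower in 3 of 9 (2997 to 5294 and 2592 to 3503), and in 1 without animal 22, 59 or 73. Erythroid markers were lower in 2 of 7 at 4 weeks (2891 to 9346 and 669.1 to 5020), with 6 of the 7 differences below 0 and a median of -0.89. T and NK cell markers were lower in 2 of 9 then and platelet markers in 1 of 4. These shares, of 1 or 2 genes each, were near the 25.8% of all genes called and above the 12.4% called lower. At 1 week 3 of 7 erythroid markers were lower, with a median of -1.25, against 4.3% of all genes called. That count ranged from 0 to 5 over the settings tried. At 4 weeks cholangiocyte markers were called higher in 2 of 6 (455.1 to 604 and 462.7 to 1073), while 3 of the 6 differences were below 0. None of 9 neutrophil, 4 B cell, 5 mesothelial and 5 pancreatic acinar markers was called by limma at 4 weeks, with 0, 1, 2 and 1 at an unadjusted p below 0.05. All 5 mesothelial differences were nonetheless below 0, with a median of -0.79, and the number called ranged from 0 to 2 over the settings tried.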

How the data were processed

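The authors deposited 1 table of intensity values for 29214 probe sets on 24 arrays, summarised by RMA on the unlogged scale per the labels and the submitters' processing notes, which give no version. RMA subtracts background, quantile-normalizes arrays and sums up probes, so small differences between arrays have been evened out and low values are compressed. No genome build or detection call is given in the sources used here. Precision is set by the number of arrays.

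The log2 of the deposited intensity was computed. Probe sets paired with 1 symbol (18644) were kept and those with several (962) or none (9608) dropped; of several probe sets of a gene, that with the highest mean was used, giving 17245 genes. The 4 group means were fitted over all arrays with limma 3.58.1 in R 4.3.3 (lmFit and eBayes, 20 residual degrees of freedom), with 5 contrasts, two-sided, and Benjamini-Hochberg adjustment over all genes. A further fit gave each group its own mean in each run, for differences within runs; a diet with 1 animal in a run was assumed to vary like the rest. Tested on simulated data made for the diet comparison at 1 week over 17245 genes, the fit recovered 69 of 100 genes changed by 0.5 and 98 of 100 changed by 1 on the log2 scale, with 16 false calls. Nothing in the labels says how animals were housed or whether RNA was processed apart. The p-values set differences against the spread between these animals and take no account of shared housing or processing.

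Members, gene lists and tests were chosen with earlier results of these data known. Values in all groups are given for members called with a difference of at least 0.58; from each list at most the 3 largest called differences in each direction are named, and others are said to have been chosen after their values were seen. Elane, Col1a1 and albumin were also named after their values were seen. The 2 probe sets with several symbols were not analysed here. Promoter windows and gene order are RefSeq's (GRCr8). Alternatives were other scalings, an offset of 16, the mean over probe sets, a filter on the lowest genes, robust eBayes with a trend, weighted arrays, a fit of just the groups compared, terms for run, well row and well column, single runs, and the loss of any 1 animal.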

Additional observations from a re-analysis of the deposited data

Results flagged for a closer look

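Single animals stood apart from the other 5 of their group, by Dixon's gap test at 0.625, in 11 of 168 gene and group pairs; chance flags about 1 in 20 groups, or 8.4 here. Among genes that fell at 4 weeks, Serpina1 had a low 20% animal (animal 29, 8247 in intensity, the next 9178), Serpina3n a low 5% animal (animal 32, 3135, the next 5783) and Serpinb7 a high 5% animal (animal 59, 9.14, the next 7.99). Serpina3m had a low 20% animal at 1 week (animal 53, 1200.4, the next 1993). Also at 4 weeks, Serpinb6a read 58.99 in animal 29 on 20% (the next 86.3), Serpinb6e 14.6 in animal 22 on 5% (the next 11.5) and Serpinb13 13.5 in animal 63 on 20% (the next 12.4). In the 20% group at 1 week, Serpinb9b read 18.5 in animal 78 (the next 21.8), Serpinb9d 6.46 in animal 79 (the next 7.58), Serpinb12 9.80 in animal 51 (the next 7.84) and Serpini1 9.82 in the same animal (the next 10.9).

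The diet difference changed between 1 and 4 weeks by the diet by time test of limma in 4 genes: Serping1 (-0.69), Serpina4 (-0.56), Serpinf2 (-0.49) and Serpinf1 (-0.40), all on the log2 scale. Each of the 4 was lower on 5% protein at 4 weeks and not called at 1 week.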

How the results depend on the processing

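No serpin gene that was called changed direction under any alternative tried. At 4 weeks the 14 calls became 8 with the run of animal numbers as a covariate, 8 within the first run and 7 within the third, and ranged from 9 (without animal 23) to 14 when single animals were left out. At 1 week the count of 0 became 1 within the second run and 1 within the fourth, and stayed 0 when any animal was left out. The 4 diet by time calls became 1 with the run as a covariate and ranged from 3 to 6 over animals left out. Serpinf2 lost that call without any 1 of 8 animals, at adjusted p of 0.05 to 0.0567 by limma. The 7 calls over time on 5% protein became 4 with only the groups compared and 4 with the run as a covariate. No run spans both times, so that covariate could not part time from run. The calls over time on 5% protein ranged from 3 to 7 over animals left out. On 20% protein the count stayed 0 over animals left out. Other settings at 4 weeks gave 10 to 15 calls. Where a count moved, the cause was not tested, beyond the smaller number of animals within a run. No paired analysis was possible because every animal number occurs in 1 group. Without detection calls, differences of genes that read low may be understated. Fewer animals of 1 diet within a run at 4 weeks limit what those comparisons can show.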
